A study of Mus musculus with 12 samples.

Results

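MHC class I antigen presentation is the route by which a cell shows fragments of its own proteins to CD8+ T cells. The proteasome cuts proteins into peptides, a transporter carries the peptides into the endoplasmic reticulum, and there they are loaded on a complex of a heavy chain and beta-2-microglobulin that travels to the cell surface. Interferon raises the genes of this route, among them those of the immunoproteasome, whose catalytic subunits replace the constitutive ones. In the intestine the route is used by epithelial cells as well as by immune cells. Here it is described through 10 genes, taken from the deposited table of counts by gene name, of 35275 genes in that table. They are the heavy chains H2-K1 and H2-D1, the light chain B2m, the transporter subunits Tap1 and Tap2, the loading factor Tapbp, the immunoproteasome subunits Psmb8, Psmb9 and Psmb10, and the transactivator Nlrc5. The rule takes the 10 genes by name alone, and each was found once.

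Ileum, the last stretch of the small intestine, came from C57BL/6 pups at postnatal day 14, and total RNA of the tissue was sequenced. Stressed pups were born to dams that had been restrained in a ventilated tube for 2 h each day on gestational days 7 to 19, and control pups to dams left undisturbed in their home cages. With 1 male and 1 female pup from each of 3 dams per treatment there were 4 groups of 3 libraries, namely stressed males, control males, stressed females and control females. The animals carried no labelled transgene or deletion, and the dam, not the pup, received the treatment. The comparison asks whether restraint of the pregnant mother alters gene expression in the offspring's ileum.

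The libraries held 16423523 to 22975526 counted reads. In 2 sets the libraries stood apart from the rest in ways that bear on the 10 genes. Both pups of control dam 3 were high in markers of the upper small intestine, with a sum of 6798 CPM (a gene's counts scaled to a common library size) in the male and 2538 CPM in the female; the sum was 158 to 514 CPM in the other 10 libraries. The labelled tissue was checked against the ileal enterocyte markers Fabp6, Fgf15 and Slc10a2, whose sum was 25.6 CPM in the male and 249 CPM in the female of that litter and 88.5 to 780 CPM elsewhere. Stressed male 1, stressed male 3 and control male 1 were rich in reads of the noncoding RNA gene Yam1, at 1.00% to 4.13% of their reads, against 0.171% to 0.5% in the others.

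The start regions of 4 of the genes, H2-K1, H2-D1, B2m and Tap1, are shown first. The 250 bases before the RefSeq start site are printed from 5′ to 3′ on the strand of the gene. The build of the RefSeq table is GRCm38.p6. Capitals mark matches, on either strand, to the full interferon-stimulated response element (GAAA, a gap of 2 bases and GAAA), its shorter form GAANNGAAA, TTCNNNGAA (the gamma-activated site), CCAAT (the CCAAT box), TGACG (the core of the cyclic AMP response element) and the kappaB consensus. The regions are chr17:34000334-34000583 on the minus strand for H2-K1, chr17:35262844-35263093 on the plus strand for H2-D1, chr2:122147437-122147686 on the plus strand for B2m, and chr17:34187306-34187555 on the plus strand for Tap1.
H2-K1: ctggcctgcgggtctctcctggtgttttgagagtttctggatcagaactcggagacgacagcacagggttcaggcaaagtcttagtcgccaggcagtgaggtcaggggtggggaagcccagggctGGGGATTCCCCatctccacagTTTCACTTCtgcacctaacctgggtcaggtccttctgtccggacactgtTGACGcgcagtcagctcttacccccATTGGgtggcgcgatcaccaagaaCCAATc
H2-D1: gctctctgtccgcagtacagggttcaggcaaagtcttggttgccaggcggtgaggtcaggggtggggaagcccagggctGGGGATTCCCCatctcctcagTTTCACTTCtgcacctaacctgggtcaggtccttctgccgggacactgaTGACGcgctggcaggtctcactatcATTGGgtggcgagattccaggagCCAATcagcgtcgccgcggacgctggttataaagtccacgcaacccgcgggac
B2m: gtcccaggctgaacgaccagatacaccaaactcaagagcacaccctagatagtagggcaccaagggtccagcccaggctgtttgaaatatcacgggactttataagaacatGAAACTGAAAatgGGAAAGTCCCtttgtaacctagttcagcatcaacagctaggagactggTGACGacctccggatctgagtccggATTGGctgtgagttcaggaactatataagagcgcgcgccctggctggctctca
Tap1: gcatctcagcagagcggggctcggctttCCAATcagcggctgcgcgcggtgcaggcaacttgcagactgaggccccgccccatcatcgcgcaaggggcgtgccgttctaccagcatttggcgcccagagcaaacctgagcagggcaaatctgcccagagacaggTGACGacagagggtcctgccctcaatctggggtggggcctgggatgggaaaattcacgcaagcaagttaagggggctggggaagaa

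Windows from 250 bases before to 50 after the start were found for 8 of the 10 genes in the RefSeq table, all but Tap2 and Nlrc5, and were compared with 32851 such windows of all genes. Both heavy chain windows held the kappaB consensus and GAANNGAAA (TTTCACTTC on the strand shown) in the same order, followed by TGACG and CCAAT boxes. In H2-K1 the TTTCACTTC stood at -104 to -96 from the start, and in H2-D1 at -150 to -142. The heavy chain windows were 87.7% identical over 253 aligned bases, with 47 bases as the longest identical stretch. The RefSeq start lay inside the deposited gene by 364 bases in H2-D1, 434 in Psmb9, 474 in Psmb8 and 3579 in Tapbp. In the other windows it lay at most 3 bases from the deposited start. B2m, on another chromosome, held the full response element as GAAACTGAAA beside a kappaB match, a TGACG and a CCAAT box.

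Of all windows 7.52% held GAANNGAAA, 3.44% the full response element, 8.3% TTCNNNGAA and 8.46% the kappaB consensus. GAANNGAAA was found in H2-K1 and H2-D1, the full element in B2m, and TTCNNNGAA in Psmb8 (TTCCCAGAA). The match in B2m did not also match GAANNGAAA. CCAAT stood in 6 of the 8 windows and in 37.4% of all, and TGACG in 5 of the 8 and in 20.8% of all. The full element was added to the search after the sequences were seen. Tap1 and Psmb9 lie head to head, so that their windows share 275 bases. In the Tap1 window these searches found a CCAAT box and a TGACG. Those of the Psmb9 window are the same sites read on the opposite strand, so each site is counted in both windows.

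The genes lie on 3 chromosomes (GRCm38 coordinates of the deposited table). On chromosome 17, in the MHC, are Tapbp (33915899 to 33929288), H2-K1 (33996017 to 34000333), Psmb9 (34181988 to 34187764), Tap1 (34187553 to 34197225), Psmb8 (34197721 to 34201454), Tap2 (34203527 to 34216321) and, farther along, H2-D1 (35262730 to 35267499). B2m is on chromosome 2 (122147686 to 122153083). Nlrc5 (94472763 to 94527272) and Psmb10 (105935728 to 105938392) are on chromosome 8. Tap1 and Psmb9 overlap by 212 bases on opposite strands, and Tapbp overlaps Zbtb22 by 3421 bases on the same strand. No source used here states whether counting used strand, so reads where genes overlap on opposite strands cannot be assigned with certainty. Strand would not separate Tapbp from Zbtb22. Of the 50-base windows of the transcripts of H2-K1 and H2-D1, 8.11% and 14.3% also occur in other genes, chiefly other class I heavy chains and each other, and of the 100-base windows 0% and 4.64%. In this respect counts of H2-K1 and H2-D1 are less certain than those of B2m, Psmb8, Psmb9, Psmb10 and Nlrc5, which shared no such window. Of these, Psmb9 has the overlap with Tap1 given above. On the opposite strand B2m overlaps Patl2 by 5398 bases, Psmb8 overlaps Gm20496 by 2139 bases and Psmb10 overlaps Gm16156 by 2665 bases. Patl2 had 0 to 2 counts per library, Gm16156 had 0 to 4 and Gm20496 had 0.

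By FPKM, a level per gene length that allows genes to be compared, B2m was the most abundant of the 10. Its mean was 730 FPKM over the 12 libraries, rank 64 among all genes. The heavy chains followed at 304 FPKM (H2-K1) and 293 FPKM (H2-D1), whose ranges over libraries overlapped (156 to 398 FPKM and 152 to 372 FPKM). Within libraries the ratio of H2-K1 to H2-D1 was 0.877 to 1.23, with a median of 1.05. Tapbp stood at 67.8 FPKM (55.5 to 91.6 FPKM) and Psmb10 at 43.8 FPKM (33.7 to 77.0 FPKM). A lower tier held Tap1 at 6.61 FPKM, Psmb8 at 6.59 FPKM, Psmb9 at 5.93 FPKM and Tap2 at 4.97 FPKM, whose ranges overlapped. Within each library Tap1 exceeded Tap2. Nlrc5, a transactivator of genes of this route, was lowest at 0.252 FPKM, with 0.163 to 0.430 FPKM per library. B2m varied most among the 10, by 4.87-fold between its highest and lowest CPM, and the SD of its log2 CPM was larger than that of 92.5% of all genes tested. Tapbp varied least between highest and lowest CPM, by 1.596-fold, and Tap2 varied least by the SD of log2 CPM, at 0.215.

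**Figure D1:**
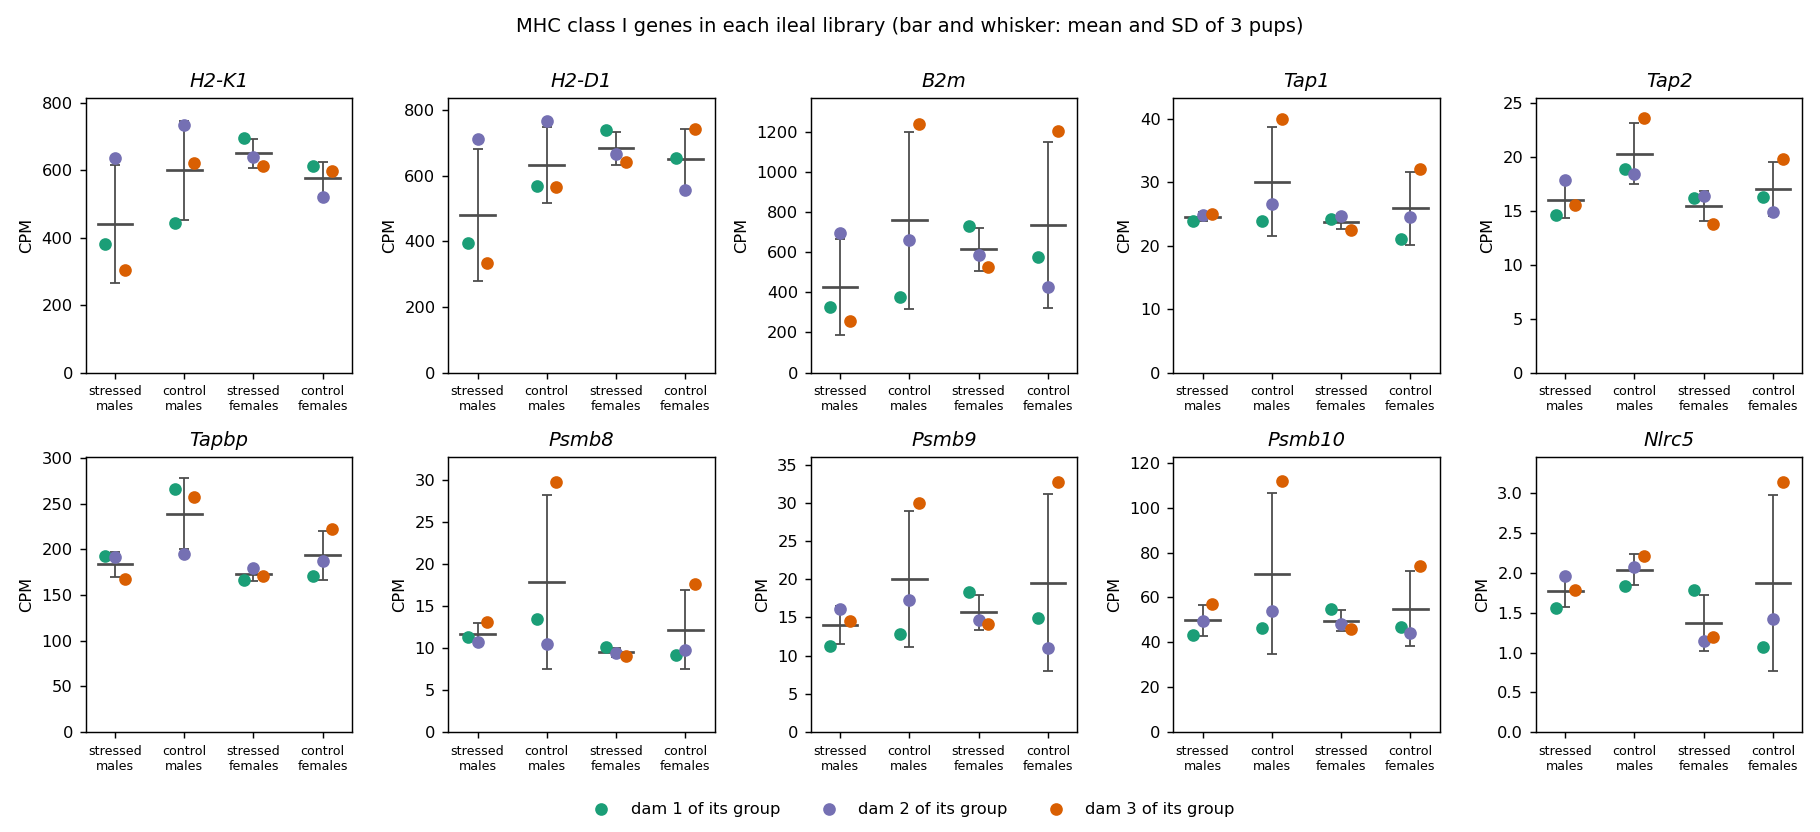
Level of each gene in CPM (counts scaled to library size) in the 12 libraries, by group, with colours for the dam number within its treatment; bars and whiskers give the mean and SD of 3 pups. In B2m both pups of control dam 3 lie at 1207 and 1242 CPM, above the other 10 libraries at 255 to 733 CPM, whereas H2-K1 in these pups lies within the range of the others.

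Over the litters, with the dam as the replicate and its male and female pup added up, all 10 genes had a log2 fold change below 0 in stressed litters, but none of the 10 passed the test. The median log2 fold change was -0.30, against 0.00 over all 16749 genes tested, of which 48.7% were below 0. The values ran from -0.50 for B2m to -0.09 for H2-K1. The adjusted p was 0.99988 for every one of the 10 (edgeR's quasi-likelihood test with Benjamini-Hochberg adjustment), and 0 genes of the whole table (0%) passed an adjusted p of 0.05. DESeq2 also called 0 genes in litters, males and females and in the difference between the sexes' changes. Unadjusted, 228 genes (1.36%) had p under 0.05, and Tapbp was the only one of the 10 among them. Since whole tissue was sequenced, fewer cells of a type and less RNA per cell cannot be told apart.

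Tapbp encodes tapasin, which holds the empty heavy chain at the peptide transporter. Its litter values were 176, 187 and 169 CPM in stressed litters, against 213, 193 and 237 CPM in control litters. Every stressed litter lay below every control litter, as in 3.18% of all genes, and no other gene of the 10 showed this. The log2 fold change was -0.27 ± 0.10 (SE, 3 against 3 dams), with a 95% interval of -0.52 to -0.03 and an unadjusted p of 0.0340 by edgeR. The authors' deposited table gives it -0.25 over both sexes, with a p-value of 0.0221 and an adjusted p of 0.9996. Its headers do not say whether pups or litters were the replicates. The same deposited comparison gives Tap2 a p-value of 0.0434, also with an adjusted p of 0.9996. Without control dam 3 the log2 fold change of Tapbp was -0.19, with an adjusted p of 0.99995 by edgeR. In that fit none of the 10 genes had an unadjusted p under 0.05, the smallest being 0.0968 by edgeR. Zbtb22, which overlaps Tapbp on the same strand, had 694 to 1016 counts per library.

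The chains of the surface complex differed in how their litters were ordered. H2-K1, a classical heavy chain, had 543, 646 and 482 CPM in stressed litters, against 543, 634 and 607 CPM in control litters. H2-D1, the other classical heavy chain of this strain, had 574, 695 and 511 CPM in stressed litters, against 621, 670 and 668 CPM in control litters. B2m, the light chain that every class I heavy chain needs, had 539, 647 and 410 CPM in stressed litters, against 492, 552 and 1220 CPM in control litters. In all 3 the groups overlapped, and in B2m control litter 3 alone lay above the stressed litters. The log2 fold changes were -0.09 ± 0.14 for H2-K1 and -0.14 ± 0.13 for H2-D1, and -0.50 ± 0.36 for B2m. Without control dam 3 that of B2m was 0.03. Without the Yam1-rich males those of the heavy chains turned to 0.08 for H2-K1 and 0.07 for H2-D1, and 8 of the 10 genes were below 0. In that fit stressed litters 1 and 3 and control litter 1 were the female pup alone. The other litters remained sums of littermates, so the mix of sexes then differed between treatments.

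In the immunoproteasome subunits, Tap1, Tap2 and Nlrc5, control litter 3 was the highest of the 6 litters. Psmb8, which replaces the constitutive subunit Psmb5, had 10.5, 10.12 and 10.7 CPM in stressed litters, against 11.1, 10.3 and 22.6 CPM in control litters. Psmb9, the counterpart of Psmb6, had 14.9, 15.5 and 14.2 CPM in stressed litters, against 14.1, 14.3 and 31.5 CPM in control litters. Psmb10, the counterpart of Psmb7, had 48.9, 49.3 and 50.4 CPM in stressed litters, against 47.0, 49.5 and 89.7 CPM in control litters. In each subunit the groups overlapped, and every litter but control litter 3 lay in a narrow range. Tap1, a subunit of the transporter that carries peptides into the endoplasmic reticulum, had 23.7, 25.03 and 23.5 CPM in stressed litters, against 22.3, 25.9 and 35.3 CPM in control litters. Tap2, its partner in the transporter, had 15.2, 17.2 and 14.5 CPM in stressed litters, against 17.5, 16.9 and 21.3 CPM in control litters. Nlrc5 had 1.66, 1.55 and 1.44 CPM in stressed litters, against 1.41, 1.77 and 2.75 CPM in control litters. Without control dam 3 the median of the 10 was -0.03 and 6 of the 10 were below 0.

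**Figure D2:**
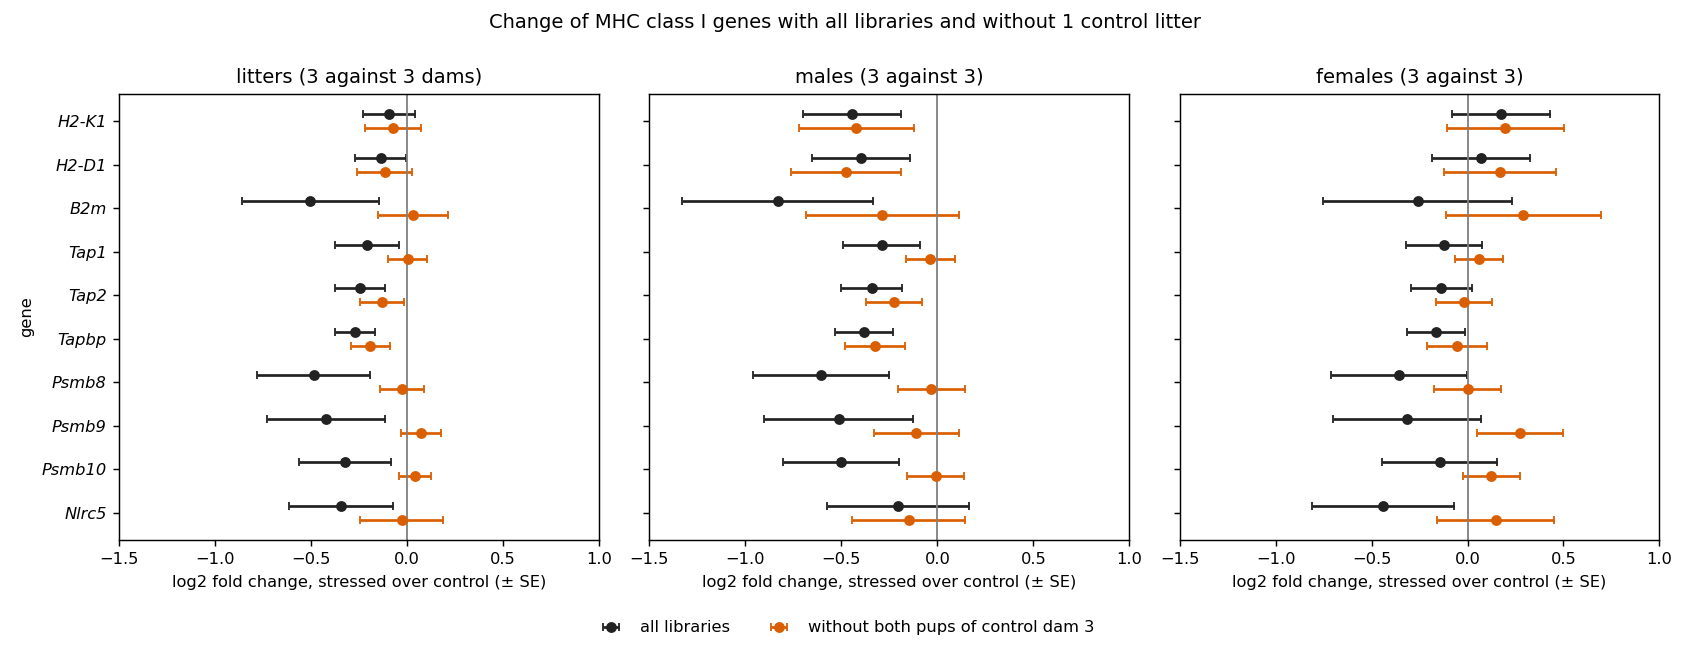
Log2 fold change of each gene, stressed over control, with its SE by edgeR, for litters, males and females, with all libraries (black) and without both pups of control dam 3 (orange). In litters all 10 black points lie below 0, and the orange points of B2m, Tap1, Psmb9 and Psmb10 lie above it; in females 8 orange points lie above 0.

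Among males all 10 genes again had a log2 fold change below 0, with a median of -0.42 against 0.01 over all 16102 genes tested, of which 48.3% were below 0. None of the 10 passed the test, with adjusted p between 0.752 and 0.918 by edgeR, and 0 genes of the table (0%) passed. Without adjustment 1028 genes (6.38%) were under 0.05, among the 10 only Tapbp. Tapbp had 192, 191 and 168 CPM in stressed males, against 266, 194 and 257 CPM in control males. Its log2 fold change was -0.38 ± 0.15 (SE, 3 against 3, unadjusted p = 0.0277). Tap2 had 14.6, 17.8 and 15.6 CPM in stressed males, against 18.9, 18.4 and 23.5 CPM in control males, with a log2 fold change of -0.34 ± 0.16. In these 2 genes of the 10 the stressed males all lay below the control males, as in 2.95% of all genes.

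In males the chains of the surface complex had low values in some libraries of both treatments. B2m had 328, 698 and 255 CPM in stressed males, against 376, 664 and 1242 CPM in control males. H2-K1 had 380, 637 and 304 CPM in stressed males, against 444, 733 and 621 CPM in control males. H2-D1 had 396, 711 and 334 CPM in stressed males, against 567.8, 766 and 566 CPM in control males. Stressed male 2 stood with the control males in all 3, and control male 1 was the lowest control in B2m and H2-K1. The log2 fold changes were -0.83 ± 0.50 for B2m, -0.45 ± 0.26 for H2-K1 and -0.40 ± 0.26 for H2-D1. Without the Yam1-rich males, which leaves 1 stressed male assumed to vary like the other groups, H2-D1 was at 0.09. Without stressed male 2 the smallest adjusted p of the 10 genes was 0.0827 by edgeR, with 1 gene of the table called. Without both pups of control dam 3 the median of the 10 was -0.19 with all 10 still below 0.

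The immunoproteasome subunits of males overlapped between treatments. Psmb8 had 11.3, 10.7 and 13.2 CPM in stressed males, against 13.5, 10.4 and 29.7 CPM in control males. Psmb9 had 11.3, 16.1 and 14.5 CPM in stressed males, against 12.8, 17.3 and 29.9 CPM in control males. Psmb10 had 43.2, 49.4 and 56.9 CPM in stressed males, against 46.3, 53.8 and 112 CPM in control males. The highest value was that of control male 3 in each. Tap1 had 23.8, 24.8 and 25.03 CPM in stressed males, against 23.8, 26.5 and 39.9 CPM in control males. Nlrc5 lay between 1.56 and 2.21 CPM in all males.

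Among females 8 of the 10 genes had a log2 fold change below 0, beside 51.5% of all genes, and the median was -0.16. None passed, with an adjusted p of 1 for each by edgeR, and 0 of 16102 genes (0%) passed, with 48 (0.298%) at an unadjusted p under 0.05. H2-K1 had 697, 641 and 613 CPM in stressed females, against 611, 520 and 598 CPM in control females. By CPM the stressed females all lay above the control females, as in 3.07% of all genes, with a log2 fold change of 0.17 ± 0.26. The margin was narrow, at 612.8 CPM in stressed female 3 against 611.4 CPM in control female 1. By FPKM the groups overlapped, at 335.7 FPKM in stressed female 3 against 345.3 FPKM in control female 1. H2-D1, the other one above 0, had 741, 667 and 643 CPM in stressed females, against 654, 558 and 742 CPM in control females. B2m had 733, 587 and 525 CPM in stressed females, against 575, 429 and 1207 CPM in control females, and only control female 3 exceeded the stressed females.

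Control female 3 was likewise the highest female in the immunoproteasome subunits. Psmb8 had 10.07, 9.38 and 9.04 CPM in stressed females, against 9.13, 9.82 and 17.6 CPM in control females. Psmb9 had 18.3, 14.6 and 14.1 CPM in stressed females, against 14.9, 10.996 and 32.7 CPM in control females. Psmb10 had 55.0, 48.2 and 45.9 CPM in stressed females, against 47.0, 44.0 and 74.1 CPM in control females. Without control female 3 and its brother, 2 of the 10 genes were below 0 in females, Tap2 and Tapbp, and the median was 0.14.

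The difference between the change in males and the change in females was below 0 in 9 of the 10 genes, beside 50% of all genes, which means a lower value of the change in males. It passed in none, with an adjusted p of 0.999 for each by edgeR, and 0 of 16102 genes (0%) passed, with 346 (2.15%) at an unadjusted p under 0.05. The lowest value was that of H2-K1, at -0.62 ± 0.36, with a 95% interval of -1.41 to 0.18. Nlrc5 was the one above 0, at 0.23 ± 0.52. The count moved with the pups of control dam 3. Without control male 3 it was 5 of 10, with a median of 0.03, and without control female 3 it was 10 of 10, with a median of -0.59, against -0.23 with all libraries. Without both pups it was 10 of 10, with a median of -0.28. Between the sexes, 6 of the 10 were higher and 4 lower in males, beside 50.6% of all genes lower. All 10 overlapped between the sexes, as did all but 0.143% (males lower) and 0.112% (males higher) of genes. The adjusted p lay between 0.427 and 0.921 by edgeR, and 8 genes of the table (0.0497%) passed. The 2 heavy chains, B2m and Psmb9 were the genes with a lower value in males, at -0.25 for H2-K1 and -0.27 for H2-D1. Without the Yam1-rich males 0 of the 10 were lower and 10 higher in males, with a median of 0.23. Without control female 3, 2 of the 10 were lower.

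Across the 12 libraries the 10 genes did not vary as 1 block. By CPM both pups of control dam 3 lay above all other libraries in 7 of the 10 genes, which is seen in 9.85% of all tested genes. These were B2m, Tap1, Tap2, Psmb8, Psmb9, Psmb10 and Nlrc5. For Nlrc5 and Tap2 this did not hold by FPKM. Nlrc5 had 0.279 FPKM in control male 3, below 0.304 in control male 2 and 0.290 in stressed male 2. Tap2 had 5.47 FPKM in control female 3, below 5.48 in control male 1. The mean CPM of the 7 genes in these 2 pups exceeded that of the other 10 libraries by 2.37-fold in B2m, 2.22-fold in Psmb8, 2.16-fold in Psmb9, 1.90-fold in Psmb10, 1.69-fold in Nlrc5, 1.496-fold in Tap1 and 1.33-fold in Tap2. H2-K1, H2-D1 and Tapbp lay within the range of the others, at 1.09-fold, 1.08-fold and 1.27-fold. These libraries were picked for their other genes and are 1 litter, so the comparison is a description.

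The Yam1-rich males formed the other set. Stressed male 1, stressed male 3 and control male 1 lay below the other 9 libraries in H2-K1, at 304 to 444 CPM against 520 to 733 CPM, and in B2m, at 255 to 376 CPM against 429 to 1242 CPM. This is seen in 9.45% of all tested genes. H2-D1 came close to it, at 334 to 567.8 CPM against 558 to 766 CPM. The other 7 genes overlapped, with 23.8 to 25.03 CPM against 21.0 to 39.9 CPM in Tap1 and 11.3 to 13.5 CPM against 9.04 to 29.7 CPM in Psmb8. Reads of the mitochondrial genome made up 2.18% in stressed male 1 and 1.16% in stressed male 3, but 4.59% in control male 1, against 3.01% to 4.32% in the other libraries. The macrophage and dendritic cell markers summed to 194 to 225 CPM in these 3 males, against 255 to 340 CPM elsewhere. The part of these values in the low heavy chains and B2m was not tested.

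**Figure D3:**
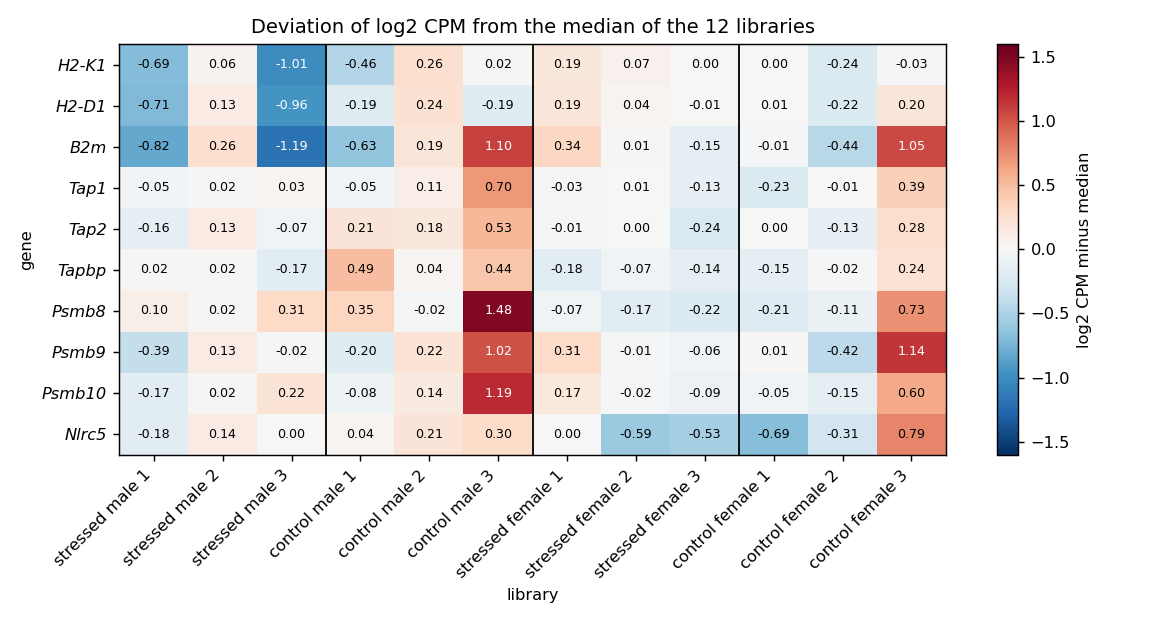
Log2 CPM of each gene in each library minus its median over the 12 libraries; red is above and blue below the median, and the black lines separate the groups. The column of control male 3 is red in Psmb8, Psmb10, B2m and Psmb9 (1.48, 1.19, 1.10 and 1.02) and near 0 in H2-K1, and stressed male 3 is blue in B2m, H2-K1 and H2-D1 (-1.19, -1.01 and -0.96).

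As a description, Pearson's r of log2 CPM between pairs of the 10 genes had a median of 0.67 over the 12 libraries, from -0.16 to 0.94 among 45 pairs. Since control dam 3 forms a cluster of its own, r was also taken over the other 10 libraries, littermates among them. There the median was 0.30 and the range -0.73 to 0.98. Among H2-K1, H2-D1 and B2m r was 0.96 to 0.98 in these 10 libraries, against 0.73 to 0.94 in all 12. Tap1, Tap2 and the 3 immunoproteasome subunits had r of 0.73 to 0.94 among themselves with all libraries, but -0.18 to 0.79 without control dam 3. Between the heavy chains and these 5 genes the median r was 0.06 in the 10 libraries, with -0.73 for H2-K1 and Psmb8. These values also rested on the Yam1-rich males, and r without them was taken after seeing the data. In the 9 libraries without these males r was 0.20 to 0.73 among H2-K1, H2-D1 and B2m, and the median between the heavy chains and the 5 genes was 0.01. In the 7 libraries without either set r was 0.88 to 0.98 among H2-K1, H2-D1 and B2m. There the median between the heavy chains and the 5 genes was 0.67, and r between H2-K1 and Psmb8 was 0.38. The low r between the heavy chains and the 5 genes was thus not seen in these 7 libraries.

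Ratios of FPKM were taken between genes whose products pair or replace each other. B2m stood at 0.976, 1.20 and 0.923 times H2-K1 plus H2-D1 in stressed males, against 0.863, 1.02 and 2.40 times in control males. In females the ratio was 1.18, 1.04 and 0.965 in stressed females, against 1.049, 0.918 and 2.09 in control females. The B2m message thus exceeded the sum of the classical heavy chains by more than 1.20 times only in the pups of control dam 3. The ratio of H2-K1 to H2-D1 stayed between 0.877 and 1.23.

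The immunoproteasome subunits were compared with the subunits they replace. Psmb8 stood at 0.0657, 0.04996 and 0.0723 of Psmb5 in stressed males, against 0.0617, 0.0542 and 0.218 in control males, and at 0.0434, 0.0470 and 0.0471 in stressed females, against 0.0436, 0.0595 and 0.0934 in control females. Psmb9 reached 0.0936 and 0.102 of Psmb6 in the male and female pup of control dam 3, against 0.0398 to 0.0685 elsewhere. Psmb10 reached 0.837 and 0.528 of Psmb7 in these pups, against 0.322 to 0.517 elsewhere. The message of the immune form was thus below that of the constitutive one in all 3 pairs and all 12 libraries. Between stressed and control litters none of the 5 ratios passed an exact permutation test over 3 against 3 dams (2-sided p of 0.3 to 0.8, Benjamini-Hochberg adjusted p of 0.8 for each). Such a test cannot give a p under 0.1.

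**Figure D4:**
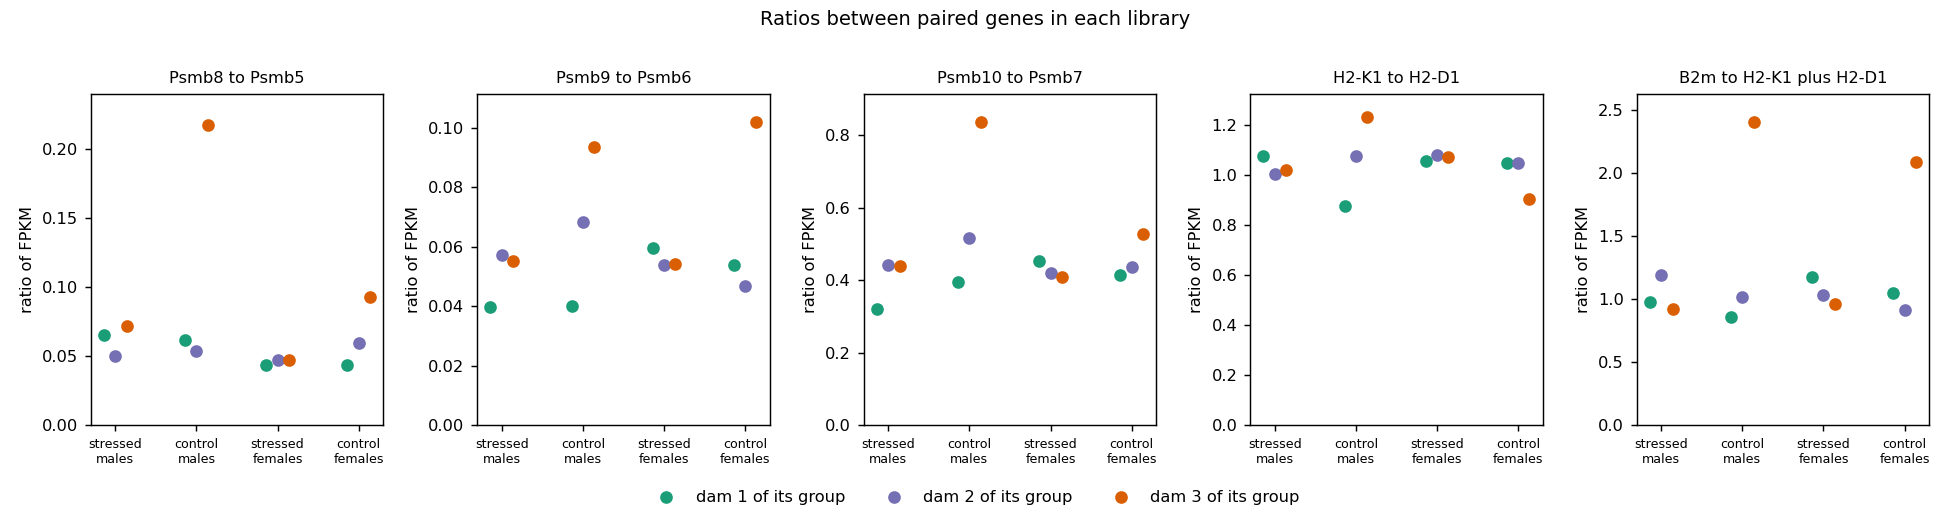
Ratio of FPKM between paired genes in the 12 libraries, by group, with colours for the dam number within its treatment. Both pups of control dam 3 are the highest in the ratios of Psmb8 to Psmb5, Psmb9 to Psmb6, Psmb10 to Psmb7 and B2m to the 2 heavy chains, but not in that of H2-K1 to H2-D1.

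Other heavy chains and the rest of the route were followed through lists of related genes, and no gene of any list passed an adjusted p of 0.05 in litters, males or females (edgeR). Of 15 tested heavy chains of the H2-Q, H2-T and H2-M regions, 13 had a log2 fold change below 0 in litters, with a median of -0.29. Without control dam 3 these were 9 of 15 and -0.03, values taken after seeing the data, as are those of the other lists without this dam. The most abundant was H2-Q2, a nonclassical heavy chain, at 128 FPKM on average. The pups of control dam 3 had 706 CPM (male) and 344 CPM (female), and the remaining libraries 48.7 to 137 CPM. H2-T3, the thymus leukemia antigen made by intestinal epithelium, had 226 and 204 CPM in these pups, against 93.3 to 150 CPM. H2-T23, which encodes the Qa-1 molecule recognised by receptors of natural killer cells, had 230 and 272 CPM, against 106 to 149 CPM. These 3 heavy chains thus stood high in the litter in which H2-K1 and H2-D1 did not. Their near copies make the counts uncertain.

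Of the 5 other proteins that pair with B2m, Fcgrt was by far the most abundant in message. It encodes the heavy chain of the neonatal Fc receptor, which carries maternal antibody across the gut of the suckling rodent. Fcgrt averaged 637 FPKM and reached 4159 CPM in the male and 2045 CPM in the female pup of control dam 3, with 377 to 903 CPM elsewhere. Its log2 fold change was -1.12 ± 0.49 in litters, and -0.26 ± 0.18 without control dam 3. Hfe, a regulator of iron uptake, Mr1, which presents vitamin metabolites, and Cd1d1, which presents lipids, lay within the range of the other libraries in the pups of control dam 3. Their log2 fold changes in litters were 0.14, 0.11 and 0.20. Cd1d2 had 9 counts in all and was not tested.

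The proteasome activator subunits Psme1 and Psme2, which together form the PA28 cap induced by interferon gamma, were also high in control dam 3. Psme1 had 182 and 165 CPM in the male and female pup of control dam 3, against 85.6 to 133 CPM elsewhere. Psme2 had 254 and 216 CPM in these pups, against 129 to 153 CPM. Psme3 and Psme4, which form other caps, lay within the range. The constitutive subunits Psmb5, Psmb6 and Psmb7 had log2 fold changes of 0.09, -0.05 and 0.01 in litters. The other 12 subunits and assembly factors of the 20S core, led by Psmb1, Psma2 and Pomp, had a median of -0.01. The 8 genes of peptide loading and trimming in the endoplasmic reticulum, led by the chaperones Calr, Hspa5 and Pdia3, had a median of -0.07, with 5 below 0. Without control dam 3 that median was 0.04, with 4 below 0.

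Of 17 transcription factors of MHC promoters 15 had a log2 fold change below 0 in litters, with a median of -0.07. Without control dam 3 these were 9 of 17 and -0.02. Irf1, an interferon-induced activator of this route and the most abundant of them, had 94.8 and 106 CPM in the male and female pup of control dam 3, against 38.7 to 72.4 CPM elsewhere. Irf8, named after its values were seen, had 130 and 107 CPM, against 40.2 to 73.8 CPM. Stat2 and Atf1, the next most abundant, lay within the range. Another list held 13 interferon ligands, receptors and the kinases Jak1, Jak2 and Tyk2 that act downstream of the receptors. Of the 9 tested 8 were below 0, with a median of -0.11, and 5 of 9 without control dam 3, with a median of -0.02. Ifnb1, Ifnl2 and Ifnl3 had no count in any library, and Ifng had 2 counts in all. The receptor subunits Ifngr1 and Ifngr2 were expressed, at 53.8 and 72.9 FPKM. Jak1 averaged 34.9 FPKM, with 194 and 173 CPM in the pups of control dam 3, against 151 to 189 CPM.

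Markers of cell types were set beside the 7 genes that were high by CPM in the pups of control dam 3. The upper small intestine markers Fabp1, Lct, Gata4 and Onecut2 are given above as a sum, and their part was not tested. Epithelial markers summed to 6832 and 5784 CPM in the male and female pup, against 4163 to 5506 CPM in the others. Macrophage and dendritic cell markers summed to 340 and 335 CPM, against 194 to 276 CPM, and endothelial markers to 373 and 321 CPM, against 254 to 341 CPM. T cell markers were not high in these pups, at 15.9 and 13.6 CPM against 15.6 to 28.6 CPM, nor were B cell markers, at 6.24 and 16.4 CPM against 19.9 to 58.3 CPM. Markers of natural killer and cytotoxic cells summed to 5.53 and 2.44 CPM, against 1.56 to 3.55 CPM. Smooth muscle markers summed to 3602 and 3787 CPM, against 2771 to 7776 CPM. Of 6 markers of the exocrine pancreas Cpa1, Cela2a, Prss2 and Pnlip had no count in any library, and the sum was 61.6 and 46.0 CPM, against 6.15 to 20.5 CPM.

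The genes whose log2 CPM most resembled the mean profile of the 10 were taken among 14509 genes with a mean of at least 1 CPM, by Pearson's r over the 12 libraries. They were Pxdc1, Grhpr, Stk25, Leap2, Ms4a10, Gip, St3gal4 and Mpp1, with r between 0.96 and 0.97, and between 0.85 and 0.89 without the pups of control dam 3. Gip, the gut hormone of K cells, had 54.2 and 35.9 CPM in these pups, against 0.318 to 5.11 CPM in the other libraries. Leap2, a peptide made by liver and upper intestine, had 74.3 and 66.3 CPM, against 3.98 to 19.6 CPM. Stk25, a protein kinase, varied far less, with 122 and 118 CPM, against 83.2 to 103 CPM.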

How the data were processed

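The authors deposited raw counts of reads and FPKM values for the 12 libraries, and tables of comparisons whose columns are, per the file headers, log2 fold changes, p-values and adjusted p-values. Tools and builds in the submitters' processing notes are GRCm38, mm10, STAR 2.5, TopHat, HTSeq 0.6.1, edgeR 3.16.5 and DESeq2, with no role stated. No source used here gives the annotation release. Within 1e-06, each deposited FPKM could be computed from its count, the library total and the gene's length.

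Counts were tested by edgeR 4.0.16 in R 4.3.3 (TMM, filterByExpr defaults, quasi-likelihood F test, Benjamini-Hochberg adjustment over all genes tested). A fit of 4 groups (16102 genes, 8 residual degrees of freedom) served males, females, their difference and the sexes. Sums of littermates (16749 genes) served litters. CPM was computed on the TMM-scaled totals of the genes tested. Alternatives, listed in the closing section, used DESeq2 1.42.0 and limma 3.58.1. The fits were tested on simulated data. Of 100 genes changed 2-fold, 70 were recovered in litters, 36 in males, 39 in females, 4 in the difference and 78 between the sexes. Of 100 changed 4-fold these were, in the same order, 96, 87, 86, 63 and 96, with 14, 6, 13, 3 and 13 false calls. Within each group the replicates are pups of separate dams. Across groups each male has a littermate among the females, and the fit of 4 groups did not model this pairing.

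The genes and lists were chosen with earlier results of these data known. Named were the 10 genes, the 3 of highest mean FPKM from each other list (all of lists of 5 or fewer), and the 8 genes most like the 10. Irf8, Ifng, Ifnb1, Ifnl2 and Ifnl3 were named outside this rule, after their values were seen. Cell type lists are given as sums.

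The labels tie the dam number to a litter, so littermates pair between the sexes. Their deviations correlated at -0.362 to 0.545. The number does not pair stressed with control dams, where the correlation was -0.329 to 0.306.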

Additional observations from a re-analysis of the deposited data

How the results depend on the processing

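No gene of the 10 passed an adjusted p of 0.05 in any comparison under any alternative that was run. The direction of several genes rested on few libraries. Without both pups of control dam 3 the log2 fold change in litters was 0.0313 for B2m, 0.0018 for Tap1, 0.0729 for Psmb9 and 0.0421 for Psmb10, and in females 0.29 for B2m, 0.0598 for Tap1, 0.0003 for Psmb8, 0.27 for Psmb9, 0.12 for Psmb10 and 0.15 for Nlrc5. Between the sexes Psmb9 was then at 0.0285, and Nlrc5 at -0.30 in the difference between the sexes' changes. Without the 3 Yam1-rich males it was 0.0823 for H2-K1 and 0.066 for H2-D1 in litters, where the litters of these males were then the female pup alone. In males it was then 0.0938 for H2-D1. Between the sexes it was then 0.10 for H2-K1, 0.0458 for H2-D1, 0.28 for B2m and 0.15 for Psmb9. In males alone the log2 ratio of H2-K1 to H2-D1 differed by -0.0234. The cause was not tested.

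With 1 sample left out at a time the log2 fold change in litters ran from -0.74 to 0.0313 for B2m, -0.35 to 0.0018 for Tap1, -0.62 to 0.0729 for Psmb9 and -0.49 to 0.0421 for Psmb10. In females it ran from -0.0485 to 0.17 for H2-D1, -0.56 to 0.29 for B2m, -0.29 to 0.0638 for Tap1, -0.56 to 0.0042 for Psmb8, -0.62 to 0.28 for Psmb9, -0.31 to 0.13 for Psmb10 and -0.76 to 0.15 for Nlrc5. Between the sexes it ran from -0.51 to 0.0363 for B2m, -0.27 to 0.23 for Psmb9 and -0.0632 to 0.32 for Psmb10. In the difference between the sexes' changes Nlrc5 ran from -0.36 to 0.53. The difference in log2 ratio ran from -0.49 to 0.0454 for Psmb9 to Psmb6, -0.0094 to 0.0626 for H2-K1 to H2-D1 and -0.50 to 0.12 for B2m to the heavy chains. Genes called in males numbered 0 to 1 and between the sexes 8 to 1384. Between the sexes DESeq2 called 18 genes, and 5 were called without the Yam1-rich males, against 8.

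With the dam number as a replicate block 0 genes were called in litters, males or females, and with the litter as a block 6 were called between the sexes and 0 in the difference. The replicate block changed no other call. Between the sexes the smallest unadjusted p of the 10 genes was 0.0190 by edgeR with the litter as a block, against 0.0885 without it. The smallest adjusted p with that block was 0.459. Depth limits Nlrc5 most. With 3 dams per treatment the intervals in litters reached from -1.34 to 0.33.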
